A study of Mus musculus with 12 samples.

Results

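The 9 genes studied encode or make surface antigens of stem and mesenchymal cells, and they were followed across mouse neural cells lacking p53, before and after an oncogenic HRas was introduced. They are Prom1, Fut4, Cd24a, Cd44, Alcam, Thy1, Cd34, Eng and Nt5e. The genes were chosen by name, with earlier results of these data known. Every probe set annotated to 1 of them alone was taken, which gave 22 of the 34945 single-symbol probe sets on the array. The array reports 18193 genes by such probe sets. Each of the 6 groups holds 2 arrays. All 12 samples are labelled p53-/-, strain BL6, brain, with an age of E14.5, and the stem cells came from the telencephalon. The parents were neural stem cells (NSC) grown as spheres without serum, astrocytes (AST) induced from them by 10% serum over 3 weeks, and oligodendrocyte precursor cells (OPC), immunopanned after culture in PDGFAA and bFGF with 0.25% serum. Each parent gave a line, NSCL61, OPCL61 or ASTL61, after electroporation with HRasL61 and EGFP, selection in 0.5 mg/ml neomycin and sorting for GFP. Those steps are not given for the parents, so HRasL61 and the selection cannot be told apart in a line set against its parent. Whether a line is 1 clone, and whether the arrays of a group came from separate cultures, is not given in the sources used here, and p-values measure only the spread between these arrays.

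These antigens are the molecules by which stem, progenitor and stromal cells are usually recognised and sorted. Prominin-1 (CD133), the product of Prom1, is a glycoprotein with several membrane spans that sits on membrane protrusions. Fut4 is a fucosyltransferase that makes the Lewis X sugar known as CD15 or SSEA-1, and CD24 is a small mucin-like protein held by a lipid anchor. CD133, CD15 and CD44, the receptor for hyaluronan, are widely used to enrich glioma-initiating cells. Mesenchymal stromal cells are defined by Thy1 (CD90), endoglin (CD105, from Eng) and the ectonucleotidase CD73 (from Nt5e), together with a lack of CD34, and they also carry ALCAM (CD166). The array measures RNA, not the protein or the sugar at the surface.

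Values are log2 signals per probe set, so a difference of 1 is a doubling. Where a gene had several probe sets, the one of highest mean over all arrays represents it. The median of all values on the arrays was 5.18, and a signal under it may be background. Such a signal is called background below, though background itself was not measured. A change to or from such a signal may therefore be a lower bound. In all, 18 of the 22 probe sets had a group mean above 5.18 and were tested, at least 1 for each of the 9 genes. They were tested within a limma fit of 23080 probe sets, which covers 12835 genes, with p-values adjusted by the Benjamini-Hochberg method. The number of arrays limits the precision.

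Some features of the arrays bear on what follows. Over the tested probe sets, the SD of the difference between the 2 arrays of a group ran from 0.205 in NSCL61 to 0.415 in OPCL61. The first ASTL61 array differed from the first AST array by an SD of 0.233, less than from the other ASTL61 array, at 0.367. The 2 AST arrays differed from each other by 0.253. The other pairs of an AST and an ASTL61 array differed by 0.33 to 0.463. Of 8 neural stem cell markers, 3 lay above 5.18 on both NSC arrays, namely Nes, Slc1a3 and Msi1, and only Sox1 lay under it on both. Nes read 8.36 and 8.15 there, and Sox2 4.41 and 6.79. Of 11 pericyte and fibroblast markers, 9 lay above 5.18 on both NSC arrays. All 7 oligodendrocyte precursor markers lay above 5.18 on both OPC arrays, as did all 8 neural stem cell markers, with a mean of 8.85 to 8.95 against 5.45 to 5.86 in NSC. So did 6 of 8 astrocyte markers, with a mean of 8.34 to 8.62 against 5.95 to 5.96 in AST. Of 8 astrocyte markers, 4 did so on both AST arrays, and Aqp4, Slc1a2 and Aldh1l1 were under it on both. Groups are called by their labels here.

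The combination of antigens above 5.18 differed between groups and was the same on both arrays in each, apart from OPCL61. By the representative probe set of each gene, all 12 arrays had Cd44, Cd24a, Alcam, Eng and Nt5e above it. The other Eng probe set was under it on every array, and the other 2 of Nt5e were above it on 4 and 6 arrays. OPC had only these 5 of the 9. NSC had Thy1 and Cd34 as well, AST and ASTL61 had Cd34, and NSCL61 had Prom1, Fut4 and Cd34. OPCL61 had Prom1, and its second array also had Cd34. In NSCL61, Cd34 stood at 5.40 and 5.39, barely above the mark. In bulk RNA, fewer cells of a type and less RNA per cell cannot be told apart.

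**Figure D1:**
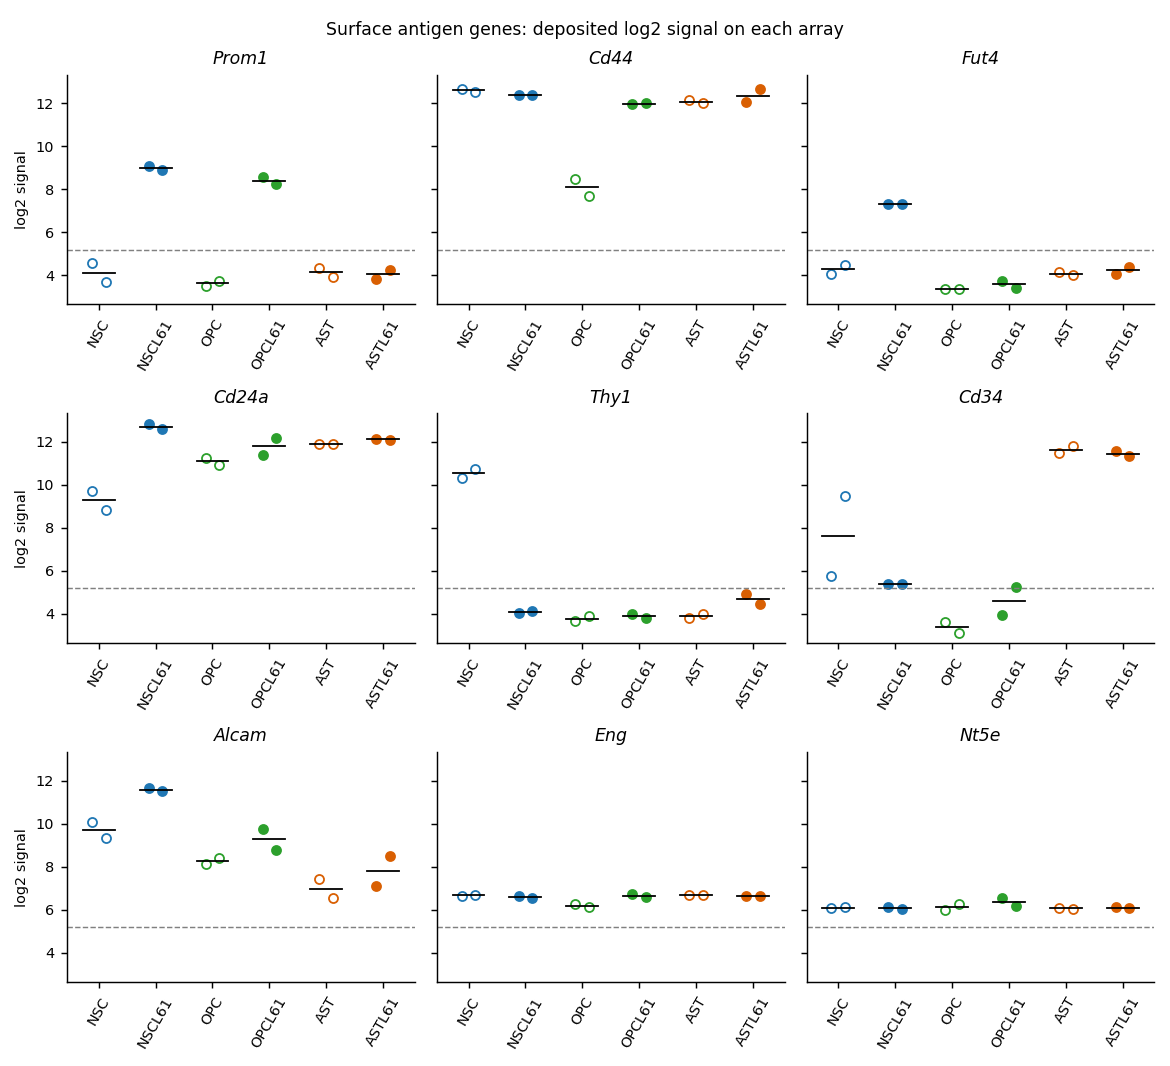
Log2 signal (vertical axis) of the representative probe set of each gene on each of the 12 arrays. Open circles are parental arrays, filled circles HRasL61 lines, bars are means of 2 arrays, and the dashed line is the median of all values, 5.18. Prom1 is high in NSCL61 and OPCL61, Fut4 in NSCL61, Thy1 in NSC and Cd34 in AST and ASTL61.

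Prom1 was high in 2 of the 3 HRasL61 lines and at background in all 3 parents. Its single probe set (1419700_a_at) read 4.54 and 3.68 on the NSC arrays, and 9.08 and 8.89 on those of NSCL61. It read 3.49 and 3.73 in OPC, and 8.57 and 8.22 in OPCL61. In AST it read 4.34 and 3.90, and in ASTL61 3.82 and 4.24. The 4 arrays of NSCL61 and OPCL61 lay far above the other 8, with no overlap. The rise was 4.87 ± 0.28 (log2 difference ± SE) in NSCL61 (adjusted p = 2.32e-06) and 4.79 ± 0.28 in OPCL61 (adjusted p = 1.31e-06), and both may be lower bounds. In ASTL61 the difference was -0.08 ± 0.28 (adjusted p = 0.984). The change differed between ASTL61 and NSCL61 by -4.96 ± 0.40 (adjusted p = 3.67e-05) and between OPCL61 and ASTL61 by 4.87 ± 0.40 (adjusted p = 2.76e-05). In order of level, NSCL61 at 8.99 ± 0.13 (SD, n = 2) and OPCL61 at 8.39 ± 0.25 were not told apart (adjusted p = 0.159), and none of the other 4 neighbours in the order was told apart except OPCL61 from AST (adjusted p = 5.42e-06).

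Promoter sequences are shown for Prom1, Cd44 and Fut4, the members in the promoter table used here whose difference between a line and its parent exceeded 3. The sequences are RefSeq's, build GRCm38.p6, 250 bases upstream of each listed start, read 5′ to 3′ on the gene's strand. Capitals mark matches on either strand to the following motifs. TGANTCA, with N any base, is a looser form of TGACTCA or TGAGTCA, the site of the AP-1 factors that act downstream of Ras. CGGAAG is a core bound by ETS factors, GGGCGG the GC box bound by SP1, and TATAAA the TATA box. Prom1 has 2 listed starts, at chr5:44101737-44101986 and chr5:44094769-44095018, both on the minus strand.
Prom1, first start: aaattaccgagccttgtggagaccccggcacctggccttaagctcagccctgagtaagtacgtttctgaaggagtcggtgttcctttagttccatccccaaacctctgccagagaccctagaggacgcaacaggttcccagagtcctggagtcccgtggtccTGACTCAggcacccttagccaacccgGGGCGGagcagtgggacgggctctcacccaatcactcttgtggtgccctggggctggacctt
Prom1, second start: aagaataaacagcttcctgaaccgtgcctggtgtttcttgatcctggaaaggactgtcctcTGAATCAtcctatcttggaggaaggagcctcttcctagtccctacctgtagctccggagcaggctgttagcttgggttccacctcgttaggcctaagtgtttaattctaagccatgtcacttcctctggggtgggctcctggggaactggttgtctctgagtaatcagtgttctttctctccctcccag
Cd44, at chr2:102901666-102901915 on the minus strand: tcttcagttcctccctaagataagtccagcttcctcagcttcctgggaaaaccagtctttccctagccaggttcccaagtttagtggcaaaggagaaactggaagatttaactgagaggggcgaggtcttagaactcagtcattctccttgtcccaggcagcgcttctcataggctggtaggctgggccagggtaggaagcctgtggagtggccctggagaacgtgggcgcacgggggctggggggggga
Fut4, at chr9:14752123-14752372 on the minus strand: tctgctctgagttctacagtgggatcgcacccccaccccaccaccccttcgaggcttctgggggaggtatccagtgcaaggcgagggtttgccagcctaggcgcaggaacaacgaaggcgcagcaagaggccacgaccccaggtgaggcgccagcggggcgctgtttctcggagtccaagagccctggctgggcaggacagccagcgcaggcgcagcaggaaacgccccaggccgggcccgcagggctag
Both Prom1 windows hold 1 match to TGANTCA, 88 and 189 bases before the start, and the first also holds a GC box 62 bases before it. The match in the first window reads TGACTCA. That in the second reads TGAATCA, which matches the looser form only. Windows of this length held TGANTCA in 6.75% of 32851 listed starts, CGGAAG in 13.6%, GGGCGG in 32.7% and TATAAA in 12.4%. The Cd44 and Fut4 windows hold none of the 4 motifs. The same was found for Cd34 and Eng, while the window of Alcam holds 2 GC boxes and that of Nt5e holds 4. These matches describe letters and not binding. Cd24a and Thy1 have no entry in the promoter table used here, so no sequence of theirs was searched.

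Fut4 was measured above background in NSCL61 only. Its representative probe set (1455843_at) read 7.30 and 7.29 in NSCL61, against 4.06 and 4.46 in NSC. It read 3.36 and 3.34 in OPC, 3.73 and 3.40 in OPCL61, 4.15 and 3.99 in AST, and 4.05 and 4.39 in ASTL61. Both NSCL61 arrays lay above all others. The rise in NSCL61 was 3.03 ± 0.18 (adjusted p = 2.37e-06) and may be a lower bound. The differences of 0.21 ± 0.18 in OPCL61 and 0.15 ± 0.18 in ASTL61 did not pass (adjusted p = 0.349 and 0.920), and the change in NSCL61 differed from both (adjusted p = 2.78e-05 and 5.88e-05). The other Fut4 probe set stood at 5.28 and 4.94 in NSCL61 and between 3.38 and 4.28 elsewhere, under the filter. Fut9, the fucosyltransferase that makes most Lewis X in the developing brain, was high elsewhere. It read 9.55 and 10.02 in OPC, 5.53 and 5.67 in OPCL61, and 3.70 and 3.30 in NSC, so that it fell by 4.19 ± 0.27 in OPCL61 (adjusted p = 2.15e-06). In NSCL61 it read 4.30 and 4.59, a difference of 0.94 ± 0.27 (adjusted p = 0.0203) within background.

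Cd24a was lowest in NSC. The probe set 1448182_a_at read 9.71 and 8.84 in NSC and 12.84 and 12.58 in NSCL61. It read 11.25 and 10.94 in OPC, 11.41 and 12.19 in OPCL61, 11.91 and 11.90 in AST, and 12.14 and 12.11 in ASTL61. Both NSC arrays lay under all 10 others, and both NSCL61 arrays above them. The rise in NSCL61 was 3.44 ± 0.30 (adjusted p = 2.71e-05), and all 3 Cd24a probe sets rose there, by 3.19 to 3.85, where 37.0% of all probe sets tested passed. In OPCL61 the difference was 0.70 ± 0.30 (adjusted p = 0.0811), 1.10 without the first OPCL61 array (adjusted p = 0.0189) and 0.31 without the second (adjusted p = 0.466). The other 2 probe sets passed there, up to 1.14, where 48.8% of probe sets did, though neither passed without the second OPC or the second OPCL61 array. In ASTL61 the representative differed by 0.22 ± 0.30 (adjusted p = 0.939). Among parents, Cd24a was higher than in NSC by 1.82 ± 0.30 in OPC (adjusted p = 7.49e-04) and by 2.63 ± 0.30 in AST (adjusted p = 3.37e-04).

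Cd44 was lower in OPC than in every other group, though above 5.18 there. The probe set 1423760_at read 8.47 and 7.68 in OPC and 11.94 and 11.99 in OPCL61. In NSC it read 12.66 and 12.51, in NSCL61 12.38 and 12.38, in AST 12.12 and 12.02, and in ASTL61 12.03 and 12.66. The 10 arrays outside OPC spanned 11.94 to 12.66 and overlapped between groups. The rise in OPCL61 was 3.89 ± 0.26 (adjusted p = 2.66e-06), and the 3 tested probe sets rose by 3.89 to 4.47. Cd44 differed by -0.21 ± 0.26 in NSCL61 (adjusted p = 0.574) and 0.27 ± 0.26 in ASTL61 (adjusted p = 0.888). OPC minus NSC was -4.51 ± 0.26 (adjusted p = 5.74e-07) and OPC minus AST was -3.99 ± 0.26 (adjusted p = 1.51e-06). In the order of levels, OPCL61 against OPC was the only pair of neighbours told apart. The remaining Cd44 probe set, 1443265_at, stayed between 2.90 and 3.56 on all arrays and was not tested.

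Genes that work with CD44 were counted from a list on hyaluronan. Of 17 genes, 12 were tested. In OPCL61, 6 rose and 3 fell, where 24.3% of all genes rose and 23.9% fell, with a median difference of 0.39 beside 0.05 over all genes. Cemip, which takes part in hyaluronan breakdown, read 4.43 and 4.73 in OPC and 8.35 and 9.09 in OPCL61, and rose by 4.14 ± 0.45. Ezr, which encodes ezrin, a link from CD44 to actin, and Msn, its relative moesin, rose by 1.18 ± 0.13 and 1.17 ± 0.20. Has2, a hyaluronan synthase, fell by 3.02 ± 0.78, from 7.15 and 6.81 to 3.87 and 4.04. In NSCL61, where Cd44 did not pass, 1 of the 12 rose and 3 fell, beside 20.5% and 16.9% of all genes. The median there was -0.13, beside 0.04 over all genes. Ezr rose by 2.42 ± 0.13 and Cemip fell by 3.98 ± 0.45. Of 7 splicing factors known to act on Cd44, 5 were tested, and Esrp1 and Esrp2, the epithelial ones, stayed under the filter. In OPCL61, 3 of the 5 fell, beside 23.9% of all genes: Hnrnpa1 by 0.69, Khdrbs3 by 0.95 and Tra2b by 0.38. In NSCL61 only Khdrbs3 rose, by 0.68 ± 0.20, beside 20.5% of all genes.

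Alcam, an adhesion molecule of the immunoglobulin family that binds itself and CD6, was highest in NSCL61 and lowest in AST. The probe set 1426300_at read 10.08 and 9.36 in NSC, and 11.66 and 11.52 in NSCL61. In OPC it read 8.15 and 8.43, in OPCL61 9.77 and 8.80, in AST 7.41 and 6.53, and in ASTL61 7.10 and 8.51. Both NSCL61 arrays lay above all others, while the arrays of OPC, OPCL61 and ASTL61 covered a wide span. The rise in NSCL61 was 1.87 ± 0.49 (adjusted p = 0.0141). It did not pass without the second NSC array (adjusted p = 0.0924) or without either NSCL61 array (0.0752 and 0.0561). Of the 4 tested probe sets 3 passed, with differences of 0.88 to 1.87 over the 4. The calls of 1426301_at and 1437467_at were lost with the replicate block (adjusted p = 0.0517 and 0.0510), the first also without any 1 of the 4 arrays and the other without the second NSC or either NSCL61 array. Differences of 1.00 ± 0.49 in OPCL61 and 0.83 ± 0.49 in ASTL61 did not pass (adjusted p = 0.120 and 0.818). In OPCL61 the 4 probe sets differed in sign, from -0.51 to 1.00. AST minus NSC was -2.75 ± 0.49 (adjusted p = 0.00309), and all 4 tested probe sets passed, where 29.2% of probe sets did. The remaining Alcam probe set, 1443086_at, stayed between 3.11 and 4.59 on all arrays and was not tested.

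**Figure D2:**
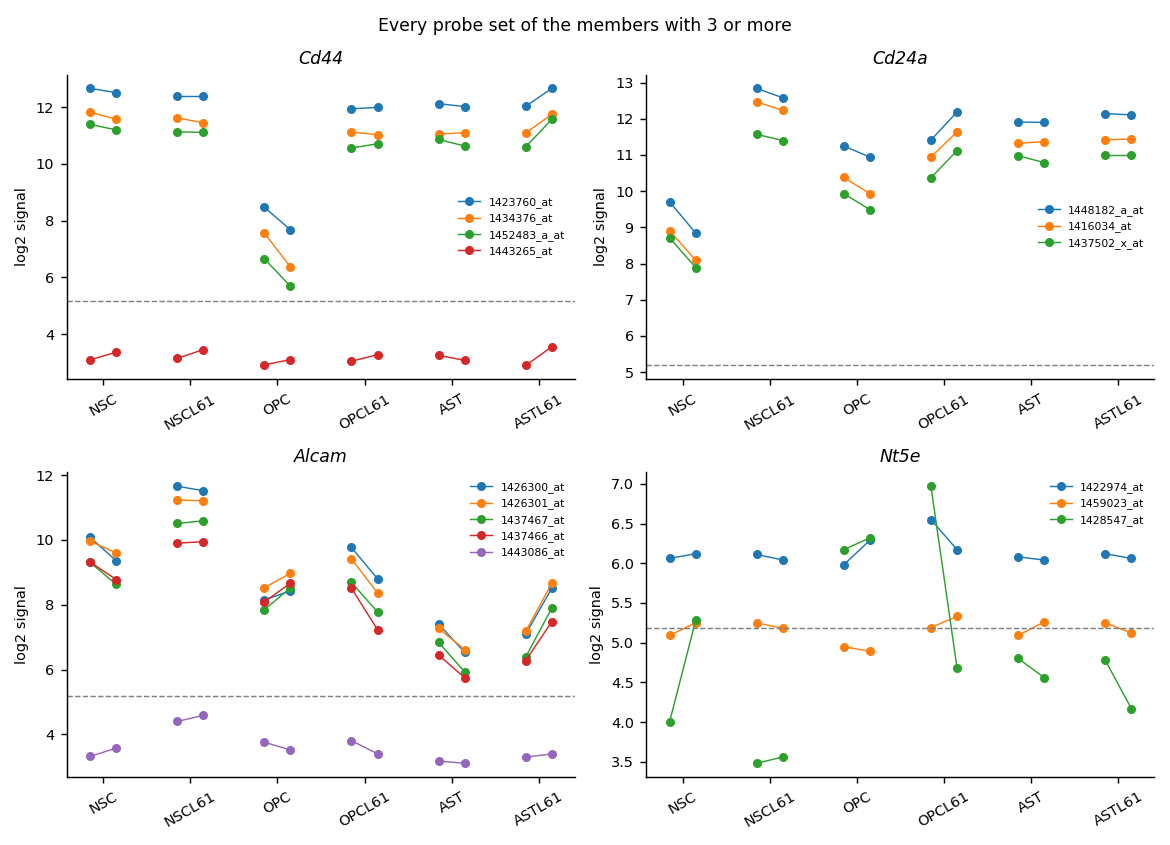
Log2 signal (vertical axis) of every probe set of Cd44, Cd24a, Alcam and Nt5e, with the 2 arrays of each group joined by a line and the dashed line at 5.18. Probe sets of Cd44 and Cd24a move together except 1443265_at of Cd44, which stays between 2.90 and 3.56, and the 3 probe sets of Nt5e differ from each other.

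Thy1 was high in NSC alone. Its single probe set (1423135_at) read 10.34 and 10.74 in NSC and 4.03 and 4.14 in NSCL61. In OPC it read 3.69 and 3.88, in OPCL61 3.98 and 3.81, in AST 3.81 and 4.01, and in ASTL61 4.92 and 4.45. The NSC arrays stood apart from the other 10, all under 5.18. Thy1 fell by 6.45 ± 0.19 in NSCL61 (adjusted p = 3.37e-08), which may be a lower bound. It differed by 0.11 ± 0.19 in OPCL61 (adjusted p = 0.669) and by 0.77 ± 0.19 in ASTL61 (adjusted p = 0.347), both within background. Set against NSC, Thy1 differed by -6.75 ± 0.19 in OPC and by -6.63 ± 0.19 in AST (adjusted p = 6.24e-09 and 8.07e-08). Thy1 is known from fibroblasts and neurons as well as stromal stem cells. The mean level of 11 pericyte and fibroblast markers was 10.74 and 10.05 on the NSC arrays and 5.43 and 5.35 on those of NSCL61. It was 8.17 to 8.76 in AST and 9.05 to 9.41 in ASTL61, where Thy1 was at background. Of the list's 11 members, 9 lay above 5.18 on both NSC arrays and 8 in AST and in ASTL61, with Lum and Anpep under it on both arrays of these 2 groups. For 8 neuronal markers, the mean was 5.26 to 5.85 in NSC and 6.40 to 6.60 in OPC. The part of such cells in the Thy1 values was not tested.

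Cd34, a sialomucin of blood progenitors and vessels, was high in both astrocyte groups and uneven in NSC. The probe set 1416072_at read 11.47 and 11.81 in AST, and 11.58 and 11.33 in ASTL61. The NSC arrays read 5.78 and 9.48. NSCL61 read 5.40 and 5.39, OPC 3.62 and 3.12, and OPCL61 3.97 and 5.23. All 4 astrocyte arrays lay above the other 8. Cd34 was higher in AST than in NSC by 4.01 ± 0.91 (adjusted p = 0.0103), and by 2.16 without the first NSC array. That call did not pass without the second AST array (adjusted p = 0.0638) or in a fit of only these 4 arrays (0.0613). OPC minus AST was -8.27 ± 0.91 (adjusted p = 5.73e-05). Cd34 differed by -2.23 ± 0.91 in NSCL61 (adjusted p = 0.0850). That difference was -4.08 without the first NSC array (adjusted p = 2.29e-04) and -0.39 without the second (adjusted p = 0.577), and with array weights it passed (adjusted p = 0.0359). It differed by 1.23 ± 0.91 in OPCL61 and by -0.18 ± 0.91 in ASTL61 (adjusted p = 0.298 and 0.993). The second NSC array, higher for Cd34, was higher for 3 of 8 neural stem cell markers and lower for 5, with a list mean of 5.86 against 5.45. It was lower for 9 of 11 pericyte and fibroblast markers and higher for 2, with a list mean of 10.05 against 10.74. The part of those differences was not tested. Of 9 endothelial markers, 7 lay under 5.18 on both arrays of every group, among them Pecam1 and Cdh5. The others, Kdr and Flt1, lay above 5.18 on both arrays of every group. The mean of the endothelial list was 4.54 to 4.58 in AST. The part of endothelial cells in the Cd34 values was not tested. Of 10 markers of microglia and blood, 9 lay under 5.18 on both AST arrays.

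**Figure D3:**
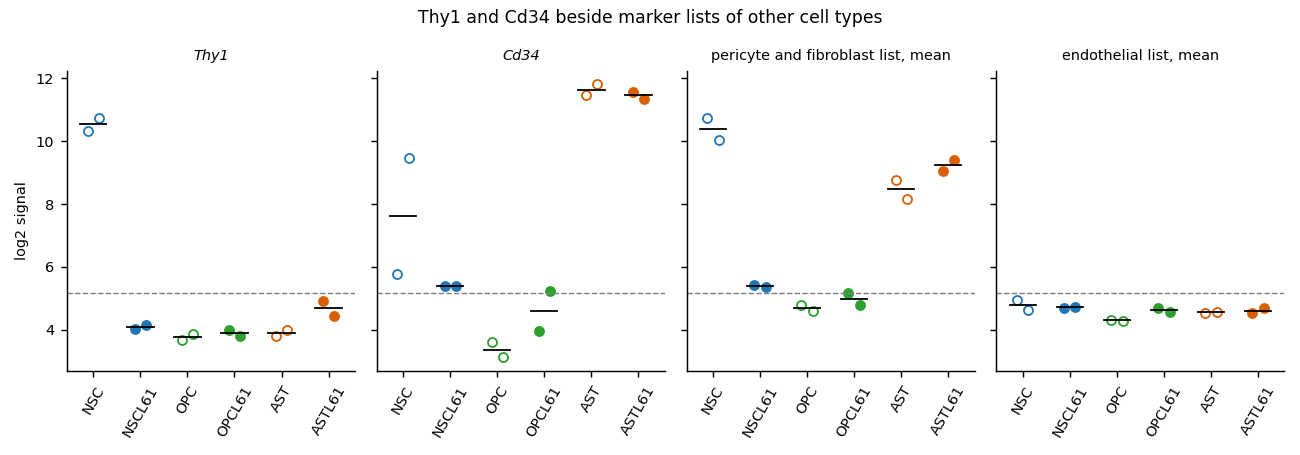
Log2 signal (vertical axis) of Thy1 and Cd34 on each array, beside the mean log2 signal of 11 pericyte and fibroblast markers and of 9 endothelial markers. Open circles are parents, filled circles HRasL61 lines, bars means of 2 arrays, and the dashed line is 5.18. The pericyte and fibroblast mean is high in NSC, AST and ASTL61, Thy1 only in NSC, and Cd34 mainly in AST and ASTL61.

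Eng and Nt5e, which with Thy1 define mesenchymal stromal cells, varied little by their representative probe sets. The Eng probe set 1417271_a_at read 6.25 and 6.14 in OPC and lay between 6.53 and 6.72 on the other 10 arrays. Eng rose by 0.46 ± 0.11 in OPCL61, to 6.72 and 6.59 (adjusted p = 0.00610), which did not pass in a fit of only the arrays compared (adjusted p = 0.0567). It differed by -0.10 ± 0.11 in NSCL61 and -0.06 ± 0.11 in ASTL61 (adjusted p = 0.531 and 0.956). The other Eng probe set stayed between 4.34 and 5.07. The Nt5e probe set 1422974_at spanned 5.98 to 6.55 over all arrays, with differences of -0.01, 0.23 and 0.03 (SE 0.15) in NSCL61, OPCL61 and ASTL61 (adjusted p = 0.958, 0.244 and 0.989). No neighbours in its order of levels were told apart. Another Nt5e probe set, 1428547_at, spanned 3.48 to 6.97. It read 6.17 and 6.32 in OPC, 6.97 and 4.68 in OPCL61, and under 5.18 on all NSCL61, AST and ASTL61 arrays. The OPCL61 arrays disagreed by more than 2, and that probe set passed in none of the 3 comparisons of a line with its parent. It was higher in OPCL61 than in NSCL61 by 2.30 ± 0.63 (adjusted p = 0.0250), though not without either NSCL61 array or the first OPCL61 array, and its other calls set OPC above NSCL61 and ASTL61 (adjusted p = 0.00445 and 0.0402). The remaining one, 1459023_at, differed by 0.34 in OPCL61, and its call was lost under 7 of the alternatives.

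The 3 comparisons of a line with its parent asked how each line's antigens differed from those of the cells it came from. In NSCL61, 5 of the 9 members passed, where 37.4% of 12835 genes did: Prom1, Fut4, Cd24a and Alcam rose, beside 20.5% of genes, and Thy1 fell, beside 16.9%. In OPCL61, 3 passed, where 48.2% of genes did: Prom1, Cd44 and Eng rose, beside 24.3% of genes, and 0 fell, beside 23.9%. In ASTL61, 0 passed by limma, where 0.0234% of genes did, and 1 member, Thy1, had an unadjusted p under 0.05. That count was 0 also without either ASTL61 array. The median size of the members' differences was 2.23 in NSCL61, 0.70 in OPCL61 and 0.18 in ASTL61, beside 0.33, 0.43 and 0.13 over all genes. Each of the members' medians is the value of 1 gene that did not pass: Cd34 in NSCL61 and ASTL61, and Cd24a in OPCL61. The Cd34 difference in NSCL61 was -4.08 without the first NSC array and -0.39 without the second. The members were chosen with earlier results of these data known, so shares and medians over all genes are no test of them.

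**Figure D4:**
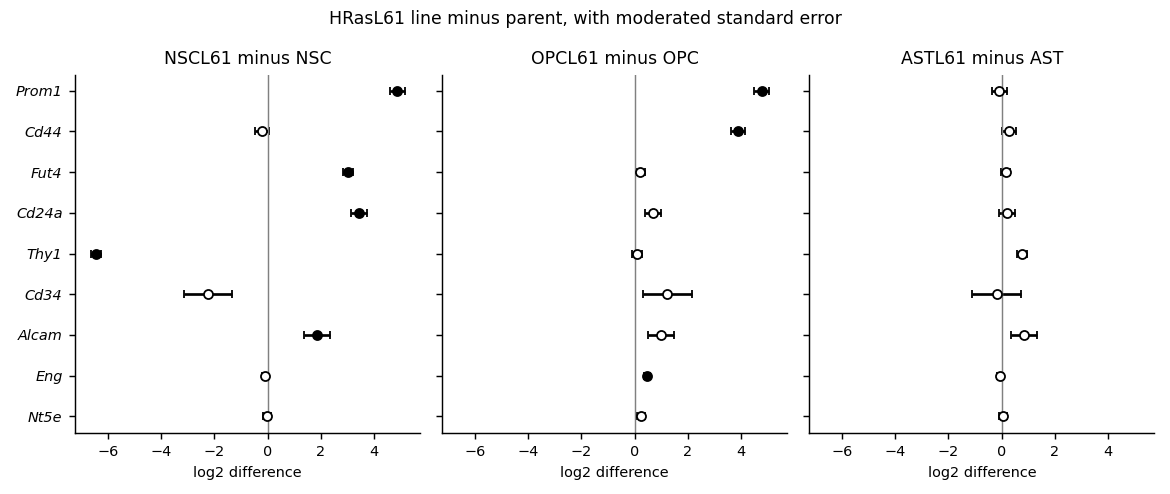
Log2 difference between each HRasL61 line and its parent (horizontal axis) for the representative probe set of the 9 genes, with bars of 1 moderated SE. Filled circles have an adjusted p under 0.05. In NSCL61 4 genes rose and Thy1 fell, in OPCL61 Prom1, Cd44 and Eng rose, and in ASTL61 none passed.

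Among parents, 7 of the 9 members separated OPC from NSC, where 51.1% of genes did, with Cd24a higher in OPC and Cd44, Fut4, Thy1, Cd34, Alcam and Eng lower. Fut4 was under 5.18 on all arrays of the parents, so both signals in its differences here and between OPC and AST may be background. The Alcam difference of -1.43 ± 0.49 passed by 1 of 4 probe sets and was lost without the first NSC array or without either OPC array, and the Cd34 difference of -4.26 ± 0.91 was -2.41 without the second NSC array. AST and NSC differed in 4 members, where 29.8% of genes did: Cd24a and Cd34 were higher in AST, and Thy1 and Alcam lower. OPC and AST differed in 6, where 51.2% of genes did. Alcam was higher in OPC by 1.32 ± 0.49, and Cd44, Fut4, Cd24a, Cd34 and Eng were lower, with Alcam at an adjusted p of 0.0463 and Cd24a at 0.0479. The representative of Alcam did not pass without the second AST array or either OPC array. That of Cd24a did not pass without any 1 of the 4 arrays, nor that of Fut4 without the first AST array. With all arrays, all 4 tested Alcam probe sets passed, with differences of 1.32 to 2.28. The largest, of 1437466_at, had an adjusted p of 0.00321 by limma. All 3 Cd24a probe sets passed too, at -1.19 to -0.81. OPC vs NSC and AST vs NSC share the NSC arrays.

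Among the lines, OPCL61 and NSCL61 differed in 2 members, where 25.7% of genes did: OPCL61 minus NSCL61 was -3.73 ± 0.18 for Fut4 (adjusted p = 1.03e-06) and -2.30 ± 0.49 for Alcam (adjusted p = 0.00794). Alcam did not pass without the first NSCL61 array (adjusted p = 0.0549). Cd24a, at -0.91 ± 0.30 (adjusted p = 0.0546), passed without the second OPCL61 array (0.0190), with array weights (0.0379), the 75th percentile filter (0.0484), quantile normalisation (0.0447) and the trended robust prior (0.0446), and 1 of the other 2 Cd24a probe sets passed with all arrays (-1.06 ± 0.29, adjusted p = 0.0252). ASTL61 differed from NSCL61 in 5 members, where 32.3% of genes did. ASTL61 minus NSCL61 was -4.95 for Prom1, -3.07 for Fut4 and -3.78 for Alcam, and Cd34 was higher in ASTL61 by 6.06 ± 0.91. Cd24a did not pass by its representative, at -0.59 ± 0.30 (adjusted p = 0.174 by limma). Of its other 2 probe sets, 1 passed with all arrays (-0.92 ± 0.29, adjusted p = 0.0365), though not without any 1 of the 4 arrays. Thy1 differed by 0.60 within background, and did not pass without the first ASTL61 array or either NSCL61 array. OPCL61 and ASTL61 differed in 5 members too, where 35.8% of genes did. Prom1 was higher in OPCL61 by 4.36 and Alcam by 1.48 ± 0.49 (adjusted p = 0.0408), and Cd34 was lower, with a difference of -6.86. Differences of -0.79 for Thy1 and -0.66 for Fut4 lay within background. For Alcam 1 of 4 probe sets passed, and that call was lost without the first ASTL61 or the first OPCL61 array, with the replicate block (adjusted p = 0.0510), with no filter (0.0512), with array weights (0.0741) and with only the arrays compared (0.130). Without the first ASTL61 array, or without the second OPCL61 array, 3 of these 5 passed.

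The changes with HRasL61 were also set against each other. The change in OPCL61 differed from that in NSCL61 for Cd44, Fut4, Cd24a, Thy1 and Eng, 5 members where 37.4% of genes did. For Prom1, the 2 changes differed by -0.09 ± 0.40 (adjusted p = 0.888). Eng did not pass without the second NSCL61 or the second OPC array. The change in ASTL61 differed from that in NSCL61 for Prom1, Fut4, Cd24a and Thy1, 4 members where 24.7% of genes did. For Cd34, which did not pass, both comparisons with NSCL61 passed without the first NSC array. The change in OPCL61 differed from that in ASTL61 for Prom1, Cd44 and Eng, 3 members where 35.0% of genes did. Eng did not pass there without either AST array, either ASTL61 array, the second OPC array or the first OPCL61 array.

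The genes whose 6 group means came closest to each member's, out of 12293 compared, were found by the root mean square difference after each profile was centred on its own mean. For Prom1 they were Atp13a4, Serpinb11 and Chrna1, at 0.40, 0.42 and 0.43. Atp13a4, a cation-transporting ATPase, read 9.19 and 8.91 in NSCL61 and 7.95 and 8.38 in OPCL61, and 3.05 to 3.95 on the other 8 arrays. For Cd44 they were Rbms1 at 0.19, Slc25a24 at 0.29 and Plec, which encodes the cytoskeletal linker plectin, at 0.31. Rbms1 read 6.49 and 6.18 in OPC and 10.44 to 11.08 elsewhere. For Fut4 they were Cdh17 at 0.14, Pdp1 at 0.22 and the galanin receptor Galr1 at 0.24, and for Thy1 Lrrc17 at 0.20, the smooth muscle actin Actg2 at 0.25 and Gask1b at 0.28. Lrrc17 read 10.39 and 9.28 in NSC and 3.39 to 4.20 on all other arrays. Cd24a came closest to Slc35g1, Cadm1 and Cxadr, at 0.42 to 0.47, and Alcam to Gstk1, Ctsh and Myzap, at 0.48 to 0.56. Cd34 had no gene nearer than 1.22, that of the chemokine Cxcl12, followed by Gdnf at 1.25 and Wscd2 at 1.27. Eng and Nt5e have nearly flat profiles, and theirs were Rpl35, Star and Odf3b, and Iqce, Rpl27 and Eci1, all within 0.05.

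Other surface antigens and partners were counted from lists, which were also chosen with earlier results of these data known. In all, 78 of 107 genes on 9 lists were tested. In NSCL61, 14 rose and 23 fell, beside 20.5% and 16.9% of all genes, in OPCL61 26 rose and 24 fell, beside 24.3% and 23.9%, and in ASTL61 0 passed by limma, 8 having an unadjusted p under 0.05. Of 12 further antigens used for neural or glioma stem cells, 6 rose and 2 fell in NSCL61 and 4 rose and 7 fell in OPCL61, with medians of 0.48 and -0.62 beside 0.04 and 0.05 over all genes. The chemokine receptor Cxcr4 read 3.78 and 3.19 in NSC and 9.43 and 9.17 in NSCL61, and rose by 5.81 ± 0.26. In OPCL61 it rose by 1.33 ± 0.26. The integrin subunit Itga6 rose by 2.39 ± 0.19 in NSCL61 and 2.71 ± 0.19 in OPCL61, and Met, the receptor of hepatocyte growth factor, by 1.24 ± 0.23 and 4.36 ± 0.23. Ptprz1, a phosphatase of progenitors, fell by 2.36 ± 0.31 and 4.06 ± 0.31.

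Of 13 other antigens of mesenchymal stromal cells, 10 were tested. Among all genes, 20.5% rose and 16.9% fell in NSCL61, with a median of 0.04. For OPCL61 these values were 24.3%, 23.9% and 0.05. In NSCL61, 5 fell and 5 did not pass, with a median of -1.03. Pdgfrb, the receptor of pericytes, read 11.43 and 11.21 in NSC and 3.89 and 4.45 in NSCL61, and fell by 7.15 ± 0.21. Vcam1 fell by 2.08 ± 0.32. The mean of the 11 pericyte and fibroblast markers, which include Pdgfrb and Anpep of this list, went from 10.74 and 10.05 in NSC to 5.43 and 5.35 in NSCL61, and the part of such cells was not tested. In OPCL61, 2 rose, among them the integrin subunit Itga1 by 2.37 ± 0.29, and 4 fell, among them Cd200 by 3.53 ± 0.15. The median was -0.44. Pdgfra and Cspg4 of this list are also on the list of oligodendrocyte precursor markers. Pdgfra read 11.29 and 11.85 in OPC and 8.05 and 7.14 in OPCL61, and Cspg4 8.06 and 8.45 against 6.37 and 6.31. The part of precursor markers in this count was not tested. Of 7 antigens that mesenchymal stromal cells lack, 1 was tested, and Ptprc and Itgam were under the filter. The 1 tested, Cd14, read 6.60 and 7.94 in NSC and 7.63 and 7.78 in AST, and passed in none of the comparisons of a line with its parent.

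The pathways of endoglin and CD73 were counted as well, beside 20.5% of all genes that rose and 16.9% that fell in NSCL61. The shares in OPCL61 were 24.3% and 23.9%, and the medians over all genes were 0.04 in NSCL61 and 0.05 in OPCL61. Of 17 genes of endoglin and TGF-beta signalling, 15 were tested. In NSCL61, 2 rose and 7 fell with a median of -0.17. The ligand Tgfb3 fell by 2.91 ± 0.24, the ligand Tgfb2 fell by 2.88 ± 0.41, and the protease Mmp14, known to shed endoglin, fell by 3.65 ± 0.28. In OPCL61, 8 rose and 2 fell, with a median of 0.34. There the receptor Tgfbr2 read 6.02 and 5.43 in OPC and 10.55 and 10.45 in OPCL61, and rose by 4.78 ± 0.20, with the co-receptor Tgfbr3 by 2.69 ± 0.20 and the ligand Tgfb1 by 3.62 ± 0.39. Of 12 adenosine genes, 6 were tested, none of them a receptor. In NSCL61, 1 of the 6 rose and 2 fell, and in OPCL61 1 rose and 1 fell, with medians of -0.19 and 0.14. Ada, the adenosine deaminase, fell by 1.03 ± 0.31 in NSCL61 and rose by 1.15 ± 0.31 in OPCL61.

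The list of prominin and Lewis X held Prom2, B4galt1, St3gal4 and fucosyltransferases other than Fut4. Of its 10 genes, 8 were tested. In NSCL61 1 rose, Fut9 within background, and 1 fell, Fut11. In OPCL61 2 rose, B4galt1 and Fut8, and 2 fell, Fut9 and Fut10. The medians were -0.14 and 0.10. For this list and the next, the shares of all genes that rose and fell were 20.5% and 16.9% in NSCL61. They were 24.3% and 23.9% in OPCL61, and the medians over all genes were 0.04 and 0.05. The galactosyltransferase B4galt1 rose by 1.96 ± 0.15 in OPCL61. Prom2, the relative of Prom1, was under the filter. Of 13 partners and relatives of CD24, CD34, Thy1 and ALCAM, 10 were tested, and 2 rose and 3 fell in NSCL61 and 4 rose and 2 fell in OPCL61, with medians of -0.13 and 0.22. Podxl, a relative of CD34, read 4.37 and 4.68 in NSC and 9.04 and 8.79 in NSCL61, and rose by 4.39 ± 0.17. In OPCL61 it rose by 2.46 ± 0.17. Podxl2, another relative, fell by 3.07 ± 0.22 in OPCL61. Nrcam, a neural adhesion molecule, rose by 7.37 ± 0.48 in NSCL61 and fell by 2.95 ± 0.48 in OPCL61.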

How the data were processed

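RNA of 12 samples in 6 groups of 2, taken from the sample titles, was measured on biotin-labelled oligonucleotide arrays after one-cycle in vitro transcription of 5 µg of total RNA, per the labels' protocols. Values were used as deposited by the authors, 1 log2 signal for each probe set. How they corrected background, summarised probes and normalised arrays is not given in the sources used here. The table holds 45101 probe sets, 64 of them controls, with array medians between 5.16 and 5.21. An annotation of the platform names 34945 non-control probe sets by 1 symbol, and a RefSeq table of GRCm38.p6 changed 0 of these symbols.

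Probe sets were tested if any group mean exceeded 5.18, the median of all values. The 23080 kept were fitted with 6 group means in limma 3.58.1 (R 4.3.3), with 6 residual degrees of freedom and 9.47 after moderation. Contrasts were 2-sided, adjusted by Benjamini-Hochberg over all kept probe sets with a threshold of 0.05, and checked on simulated data. Group counts over genes take 1 probe set a gene, that with the highest mean. The 9 lists are prominin and Lewis X, CD44 and hyaluronan, CD44 splicing, adenosine, endoglin and TGF-beta, partners, other mesenchymal antigens, antigens these cells lack, and other stem cell antigens. In each list up to 4 genes past the threshold were eligible to be named per line, by smallest p. Has2, Met in NSCL61, Cxcr4 and Nrcam in OPCL61, the list genes under the filter and Cd14 fall outside that rule and were chosen after their values were seen. For each member the 3 genes of most similar group means were named, leaving out provisional symbols. The members and lists were chosen with earlier results of these data known. Alternatives were 2 other scalings, 2 filters, 1 probe set a gene, a fit with the replicate number as a block, array weights, a prior that was trended and robust, only the arrays compared, and each array left out in turn.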

Additional observations from a re-analysis of the deposited data

Results flagged for a closer look

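The changes with HRasL61 differed between lines, by the test of the difference itself, for 6 of the 9 genes, in contrasts where 37.4% (OPCL61 with NSCL61), 24.7% (ASTL61 with NSCL61) and 35.0% (OPCL61 with ASTL61) of all genes passed. Differences are given as log2 values of the first change minus the second. For Prom1 the change in ASTL61 minus that in NSCL61 was -4.96, and the change in OPCL61 minus that in ASTL61 was 4.87. For Cd44 the change in OPCL61 exceeded that in NSCL61 by 4.10 and that in ASTL61 by 3.62. For Fut4 the change in OPCL61 minus that in NSCL61 was -2.82, and that in ASTL61 minus that in NSCL61 was -2.88. For Cd24a the same 2 differences were -2.73 and -3.22. For Thy1 they were 6.56 and 7.23, with Thy1 under 5.18 on every OPC and AST array, where a fall could not be measured. For Eng the change in OPCL61 exceeded that in NSCL61 by 0.55 and that in ASTL61 by 0.52. The Eng differences had adjusted p-values of 0.0180 and 0.0258 by limma, and the second did not pass without either AST array, either ASTL61 array, the second OPC array or the first OPCL61 array.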

How the results depend on the processing

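The calls were recomputed under 21 alternatives, all listed with the design. Of 2856 values of a member probe set under an alternative, 2646 kept their sign and side of the threshold, 77 changed sign with neither value passing, 95 no longer passed, 38 passed anew and 0 that had passed changed sign, and of 336 counts 314 stayed within 1.5 times. Genes called for ASTL61 against AST were 3, 5 with array weights, 0 with only the arrays compared and 0 to 92 with 1 array left out, the highest without the first ASTL61 array. For OPCL61 against ASTL61, only the arrays compared gave 2455 genes in place of 4599 and 2 members in place of 5, and leaving out an array gave 3 to 4 members in the pair's comparison. The 75th percentile filter left 3 of the 5 members whose changes differed between OPCL61 and NSCL61. Leaving out an array gave 2958 to 4036 genes for NSCL61 against NSC (4800 with all arrays), 2054 to 2945 for AST against NSC (3830), 1704 to 2779 for OPCL61 against NSCL61 (3301), with 1 to 3 members in place of 2, 2345 to 3343 for ASTL61 against NSCL61 (4149), and 1961 to 2933 for the change in ASTL61 against that in NSCL61 (3176). Fits without 1 array assume that the lone array of the group varies like the other groups. The cause of these moves was not tested, beyond the fewer arrays or genes in each fit. By the representative probe sets, the difference in Cd24a between OPC and AST did not pass with no filter (adjusted p = 0.0565 by limma), quantile normalisation (0.0513) or the block (0.0578). That in Alcam did not pass with median centring (0.0569), no filter (0.0553) or the block (0.0568).

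Same-numbered arrays share only a number: the correlation of the difference between the 2 arrays was 0.14 for NSC with NSCL61, and -0.0023 and 0.0010 for the other 2 pairs of line and parent. With the replicate number as a block, 4721 genes passed for NSCL61 against NSC, 6152 for OPCL61 against OPC and 2 for ASTL61 against AST, with 5, 3 and 0 members. Signals under 5.18 may limit the sizes of changes in Prom1, Fut4 and Thy1, and of Cd34 differences that involve OPC or the first OPCL61 array. Median centring moved no comparison's median difference over the probe sets by over 0.1.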
